A study of Bos taurus with 16 samples.

Results

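The vacuolar proton pump is a rotary complex that splits ATP in its cytosolic V1 sector and drives protons through its membrane-bound V0 sector. It acidifies lysosomes and endosomes in most cells, and in some epithelia it also sits in the plasma membrane and secretes protons. Rumen papillae absorb the acids of fermentation, and the pump has been described in the rumen epithelium of sheep beside sodium-proton exchange. Here 10 genes for pump subunits and an accessory protein were described: ATP6V1A, ATP6V1B2, ATP6V1C1, ATP6V1D, ATP6V1E1 and ATP6V1H of V1, ATP6V0C, ATP6V0D1 and ATP6V0E1 of V0, and the accessory gene ATP6AP1. They were chosen by name, and all 10 were found among the 11996 genes with exon regions in the deposited table. The 10 genes held 94 of 113050 exon regions that belong to a single gene, and 1 further region, which joins an exon of ATP6V1D with an exon of MPP5, was left out.

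Poly(A)-selected RNA of rumen papillae was sequenced from 16 crossbred steers aged 344 ± 48 days, with 4 animals in each of 4 groups. Steers of high gain formed a high-intake and a low-intake group, and so did steers of low gain. No group was treated. Animals were allotted by the quadrant of weight gain and dry matter intake in which they fell, and all ate the same corn-based ration without restriction. The groups thus differ in observed performance, and gain and intake were not imposed. Papillae are bulk tissue, in which fewer cells of a type and less RNA per cell cannot be told apart.

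Levels are read coverage averaged over the bases of a region, brought by the authors to a common total per library. They are per base, but coverage within a gene varies with the region, so levels of different genes are set side by side only as descriptions. For each gene the exon region with most coverage, as a mean of the 16 libraries, was taken. Estimated depth was 11.9 to 21.2 M reads per library, and 1 read over 50 bases was worth 0.56 to 1.0 of coverage. Between 52.4% and 68.9% of sequenced bases lay in exon regions, and 8.75% to 28.0% were mitochondrial. In 5 libraries coverage of first exons was low over 1549 genes with many exons: replicate 4 of high gain with high intake, replicates 2, 3 and 4 of high gain with low intake, and replicate 3 of low gain with low intake. Their first-exon index, the median log2 ratio of first to other exons, was -3.37 to -2.32, against -1.53 to -0.638 in the other 11. The gap of 0.785 that sets the 5 apart is close to a gap of 0.773 among them, with replicates 3 and 4 of high gain with low intake above it, so a division into 3 and 13 libraries is nearly as wide. Of the 11 epithelial markers measured, medians ran from 13.7 for EPCAM to 2051 for KRT6A. They ran from 1.19 to 78.2 for the 5 fibroblast markers, led by COL3A1, from 1.05 to 15.7 for the 5 of smooth muscle, led by TAGLN, from 0.565 to 14 for the 5 of macrophages, led by CD14, and from 1.23 to 4.98 for the 4 of endothelium, so stromal transcripts were present beside epithelial ones.

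ATP6V0C, which encodes the proteolipid of the membrane ring that carries the protons, and ATP6V1A, which encodes the catalytic A subunit, had the highest levels. Over the 16 libraries ATP6V0C had a median of 74.0 (17.4 to 109) and ATP6V1A a median of 72.4 (50.4 to 134). ATP6V0C was above ATP6V1A in 8 libraries and below it in 8, so the order of this pair is not defined. Below them came ATP6V0E1, a small membrane subunit, with a median of 34.1, ATP6V1E1, which encodes a stalk subunit, with 33.2, and ATP6AP1, the Ac45 accessory protein gene, with 28.8. ATP6V0E1 exceeded ATP6V1E1 in 7 of 16 libraries and ATP6V1E1 exceeded ATP6AP1 in 7, so these neighbours did not separate either. ATP6V1H, which encodes a regulatory subunit of V1, had a median of 22.9, and ATP6V0D1, which encodes the subunit that joins the ring to the rotor, 16.7.

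The lowest of the 10 were ATP6V1D, a rotor subunit gene, with a median of 12, ATP6V1B2, which encodes the B subunit that alternates with A in the V1 head, with 9.80, and ATP6V1C1, a stalk subunit gene, with 6.83. ATP6V1D was above ATP6V1B2 in 10 of 16 libraries and ATP6V1B2 above ATP6V1C1 in 14. The ranges of all neighbouring genes overlapped. The order depends on the region taken. With the mean over all exon regions, which include intron bases, ATP6V1A had a median of 16.5, ATP6V0C 14.8, ATP6AP1 14.3, ATP6V0E1 12.9 and ATP6V0D1 10.6, and ATP6V1C1 was again lowest with 2.10. Within ATP6V1A the 19 exon regions ranged from a mean of 0.910 at exon 1 to 81.2 in a stretch of exon 15, the last exon.

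**Figure D1:**
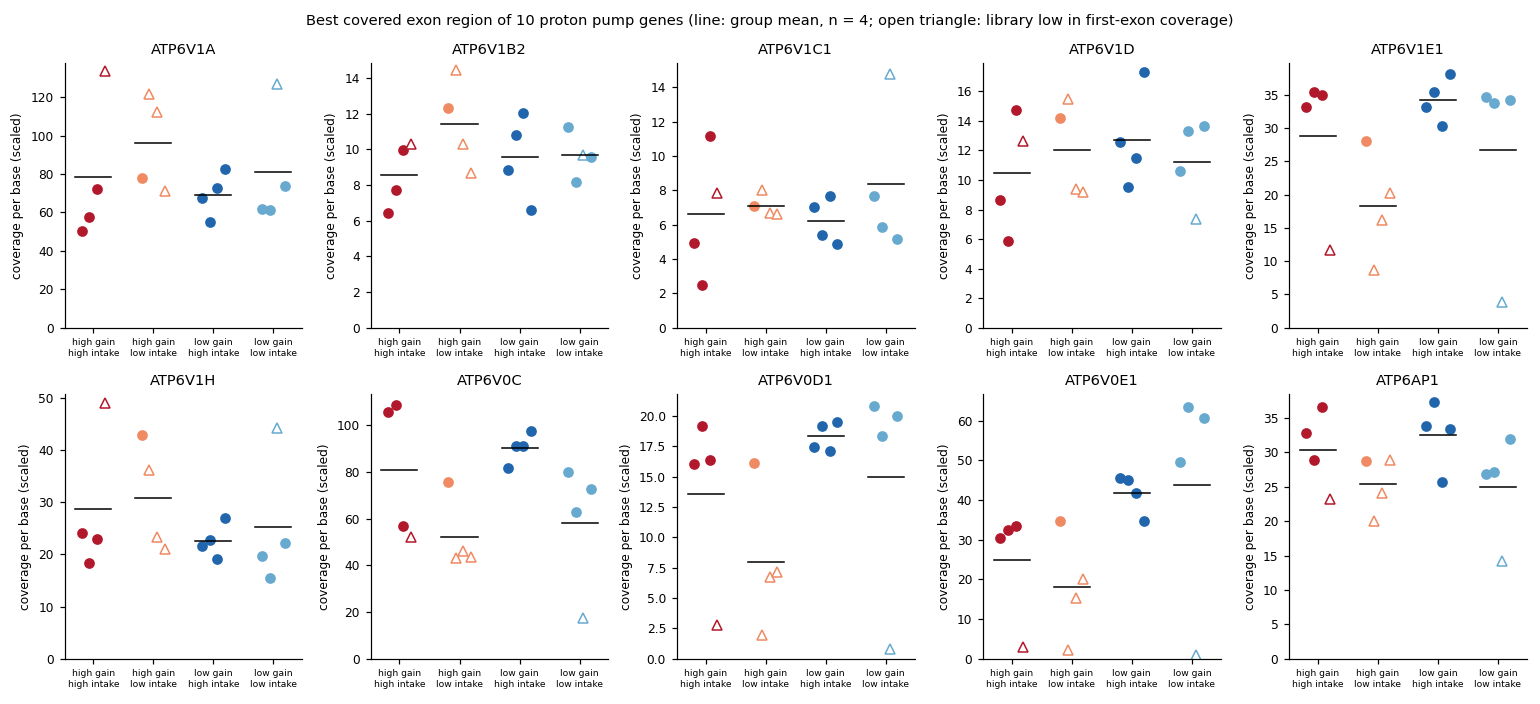
Coverage per base (scaled) of the best covered exon region of the 10 genes in 16 libraries, by group, with a line at the mean of each group (n = 4) and open triangles for the 5 libraries low in first-exon coverage. In ATP6V1E1, ATP6V0C, ATP6V0D1 and ATP6V0E1 all 5 triangles lie below all 11 circles, as in 19.5% of all tested genes.

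Subunits B, C, E, G, a, d and e each have alternative forms encoded by separate genes, and 14 other pump subunit genes had exon regions here. For subunit B, ATP6V1B2 is known as the widespread form and ATP6V1B1 as the form of kidney intercalated cells and the inner ear. ATP6V1B1 had a median of 26.7 (highest 38.8), and ATP6V1B2 a median of 9.80 (6.42 to 14.4). The regions compared are unlike, with 3841 bases over exons 10 to 14 in ATP6V1B1 and 251 bases at exon 10 in ATP6V1B2. Their ratio is therefore not like for like. ATP6V1B1 was the higher of the pair in 16 of 16 libraries, by 1.41 to 4.86 times, and in 15 of 16 with the mean over all exon regions. The other genes linked to kidney-type pumps did not share this level: ATP6V0A4 had a median of 1.73, and ATP6V0D2 was listed at 0 in 13 of 16 libraries with a highest value of 0.90.

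ATP6V1C2, a form reported from kidney and lung epithelia of mice and humans, had a median of 6.81 against 6.83 for ATP6V1C1, and exceeded it in 9 of 16 libraries, or in 6 with the mean over all exon regions. For subunits E, G, d and e a single form led. ATP6V1E1 at 33.2 stood over ATP6V1E2 at 0.840, and ATP6V1G1 at 27.7 stood over ATP6V1G2, which was listed at 0 in 13 of 16 libraries. ATP6V0E1 at 34.1 stood over ATP6V0E2 at 0.310, and ATP6V0D1 at 16.7 over ATP6V0D2, and in each of these pairs the named leader was higher in 16 of 16 libraries. Of the a subunits, which form the proton path and direct the pump to its membrane, ATP6V0A1 had a median of 19.3, TCIRG1, the form known from osteoclasts, 4.05, and ATP6V0A2 3.45. ATP6V0A1 was above ATP6V0A2 and ATP6V0A4 in 15 of 16 libraries. In replicate 3 of low gain with low intake it was below both, at 1.79, against 9.48 for ATP6V0A2 and 3.09 for ATP6V0A4. With the mean over all exon regions ATP6V0A2 exceeded it in 3 libraries. Among subunits with a single gene, ATP6V1F of the rotor had a median of 68.6, ATP6V0B of the ring 19.7 and the accessory gene ATP6AP2 31.3. The forms were compared after their levels had been seen, so these are descriptions without a test.

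**Figure D2:**
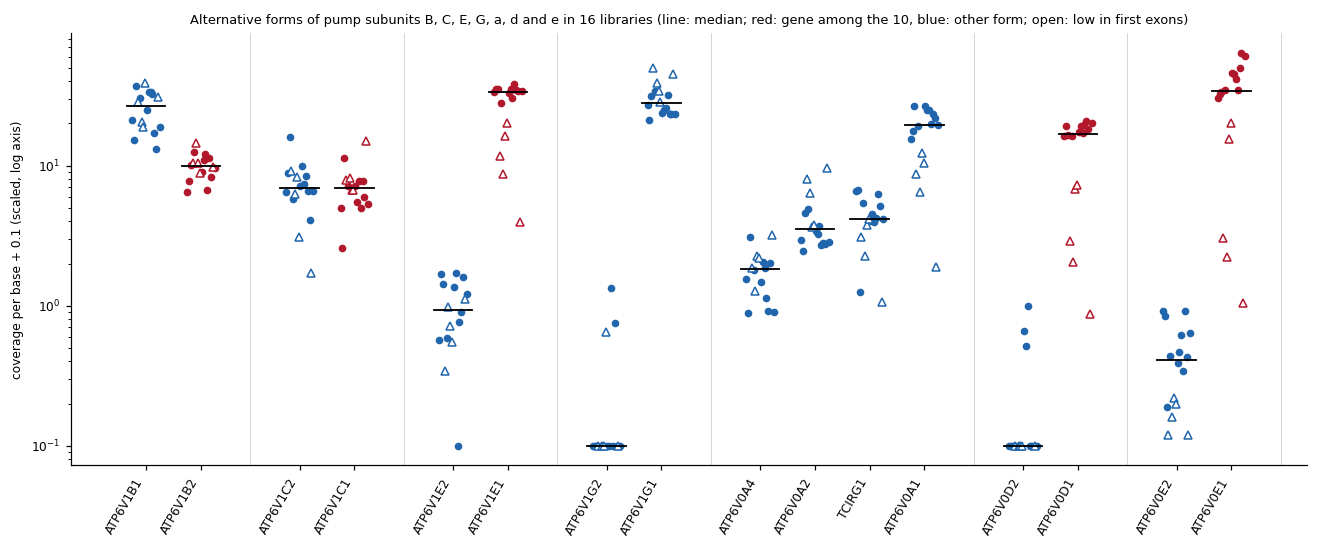
Coverage per base + 0.1 (scaled, log axis) of alternative subunit forms in 16 libraries, with lines at medians, red for genes among the 10 and blue for other forms, and open triangles for libraries low in first exons. ATP6V1B1 lies above ATP6V1B2, while for subunits E, G, d and e a single form lies far above the other.

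Of the 10 genes, several were low in the 5 libraries low in first-exon coverage although they were measured at later exons. Those libraries were picked by first exons of many genes, so the low first exons of the pump genes repeat that choice, and only the later exons add to it. ATP6V0D1 was measured over exons 5 to 8 (chromosome 18, 35165515 to 35168931, UMD3.1). Its level was 2.78, 1.96, 6.71, 7.14 and 0.770 in the 5 libraries, in the order named above, and 16.1 to 20.8 in the other 11. All 5 lay below all 11, and its 4 exon regions had medians between 0.757% and 17.4% of those in the other libraries.

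In ATP6V1E1 the low coverage was at the far end. It was measured over exon 9, its last (chromosome 5, 109563876 to 109565089), with 11.6, 8.64, 16.1, 20.2 and 3.86 in the same 5 libraries and 28.1 to 38.1 in the other 11. Its regions of exon 2, of exons 3 and 4, and of exon 5 stood at 81.4%, 135% and 108% of the other libraries, while those of exon 6, exons 7 and 8, and exon 9 stood at 49.4%, 45.3% and 34.0%. The shortfall thus lay at exon 1 and at the end of the gene, not in its middle.

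ATP6AP1 (chromosome X, 40409149 to 40410557, exons 9 and 10) had 23.2, 20.1, 24.1, 28.9 and 14.2 in the 5 libraries and 25.6 to 37.3 in the other 11. Upstream, its regions of exons 2 to 7 stood at 0% to 7.59% of the other libraries, and exon 8 at 44.2%. Exon 5 was listed at 0 in 4 of the 5 and in 0 of the 11.

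ATP6V0C (chromosome 25, 2019432 to 2019599, exons 3 and 4) had 51.9, 43.3, 46.2, 43.6 and 17.4 in the 5 libraries and 57.0 to 109 in the other 11. A stretch of 99 bases of its exon 3 was listed at 0 in 4 of the 5 libraries and had 0.360 in the other, high gain with low intake replicate 4, while the 11 had 17.7 to 81.2. A neighbouring stretch of 99 bases of the same exon had 23.4 to 40.1 in the 5 and 29.4 to 72.0 in the 11. Processed copies of proteolipid genes are known in mammals, and how reads that fit several places were counted is not given in the sources used here.

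ATP6V0E1 is represented by exon 1 (chromosome 20, 4641568 to 4641777), with 2.93, 2.14, 15.4, 20 and 0.950 in the 5 libraries and 30.5 to 63.6 in the other 11. The smallest of these values stands for an estimated 4.93 reads. Its exons 2, 3 and 4 stood at 97.2%, 113% and 140% of the other libraries, so that its low level rests on exon 1 alone.

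The other 5 genes moved less or the opposite way in their best covered regions. ATP6V1A (chromosome 1, 58939610 to 58939919, exon 15) had 134, 122, 112, 71.4 and 127 in the 5 libraries and 50.4 to 82.4 in the other 11. Its regions stood at 8.26% at exon 1, 24.5% at exon 2 and 53.4% at exon 3, then at 89.1% to 216% from exon 4 to exon 15. ATP6V1H (chromosome 14, 23511294 to 23511552, exon 13) had 21.1 to 49.1 in the 5 libraries and 15.4 to 42.9 in the 11, with a median at 164%, but its exon 11 stood at 28.0%, exon 12 at 0% and the other stretch of exon 13 at 14.7%.

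ATP6V1C1 (chromosome 14, 63604123 to 63604223, exon 7) had 6.61 to 14.8 in the 5 libraries and 2.50 to 11.2 in the 11, and its 12 regions without exon 1 ran from 100% to 258%. ATP6V1B2 (chromosome 8, 67816541 to 67816791, exon 10) had 8.69 to 14.4 in the 5 and 6.42 to 12.3 in the 11, and ATP6V1D (chromosome 10, 79594842 to 79594955, exon 3) 7.34 to 15.5 in the 5 and 5.86 to 17.3 in the 11. Of 79 pump gene regions without a first exon and with a mean of at least 1, 26.6% were under 50% of the other libraries, against 33.8% of 42830 such regions over all genes. The medians were 102% for the pump genes and 97.2% over all genes. At the best covered region all 5 libraries lay below all 11 for 4 of the 10 genes (ATP6V1E1, ATP6V0C, ATP6V0D1 and ATP6V0E1), against 19.5% of all tested genes. With first exons left out this held for 3 of the 10, without ATP6V0E1, against 18.6% of all genes. The cause of the split was not tested.

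**Figure D3:**
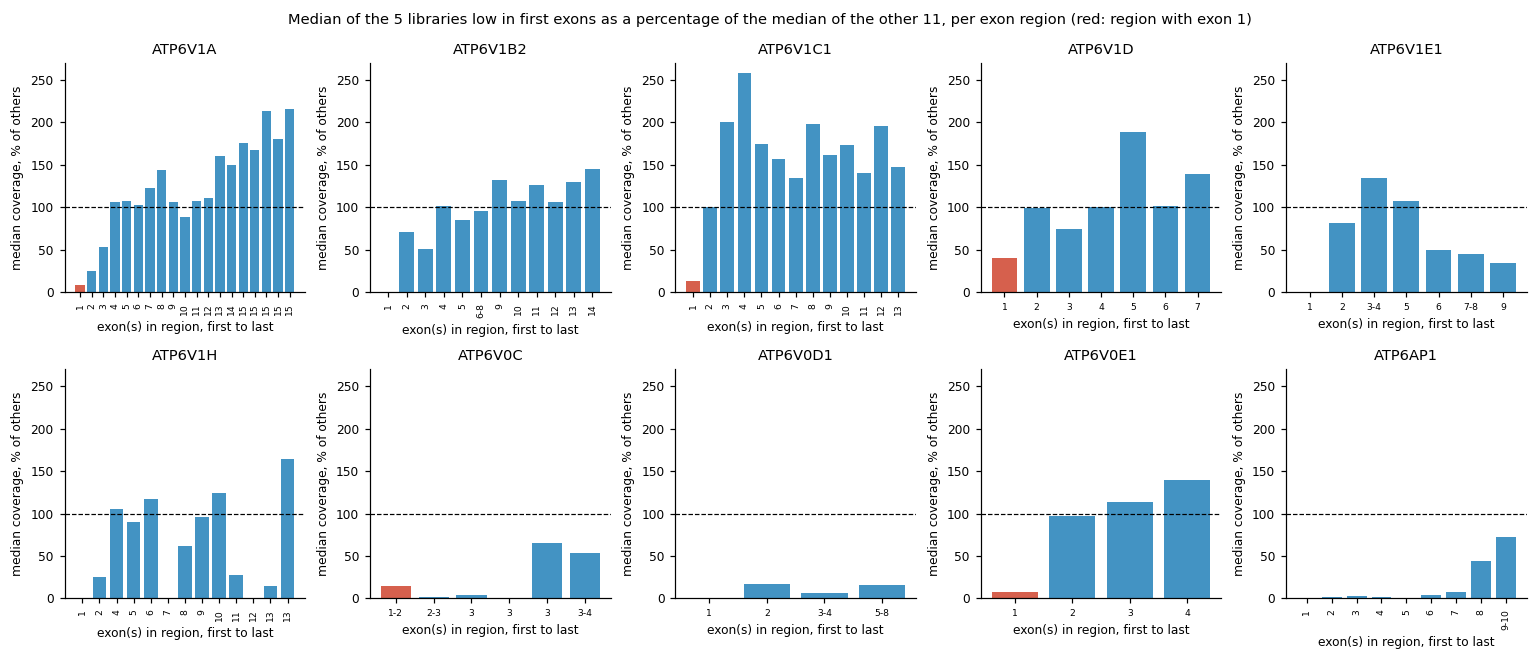
Median coverage of the 5 libraries low in first exons as a percentage of the median of the other 11, for every exon region of the 10 genes in transcript order, with regions that hold exon 1 in red and a dashed line at 100%. ATP6V0D1 is at 17.4% or less throughout, ATP6V1E1 declines to 34.0% at its last exon, and ATP6V1C1 is at or above 100% beyond exon 1.

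Over the 11 libraries not low in first exons, the 10 genes did not vary as a single group. The median Pearson r over their 45 pairs was 0.041, against 0.093 over pairs of all tested genes, and 24 of 45 were above 0. The highest was 0.783, between ATP6V1A and ATP6V1D, and the lowest -0.697, between ATP6V0C and ATP6V1C1. All pairs among the V1 genes ATP6V1A, ATP6V1B2, ATP6V1C1, ATP6V1D and ATP6V1H were above 0, the lowest being 0.159 between ATP6V1B2 and ATP6V1D, while the remaining V1 gene, ATP6V1E1, was below 0 with each of them. These 5 were singled out after the values were seen. No p is given, and the 11 libraries come from all 4 groups and differ in depth. The genes closest to the mean of the 10 standardized levels over these 11 libraries were PAFAH1B2 (r = 0.927), RPL27A (0.884), PCOLCE2 (0.869), RPL19 (0.866) and RPS3A (0.857), out of 9433 compared. Over all 16 libraries they were SH3YL1 (0.891), OPA3 (0.873), BNIPL (0.853), GOLPH3L (0.847) and RBM4 (0.846), so the lists share no gene. Over 16 libraries, that mean combines genes that differ in direction between the 5 libraries low in first exons and the other 11.

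**Figure D4:**
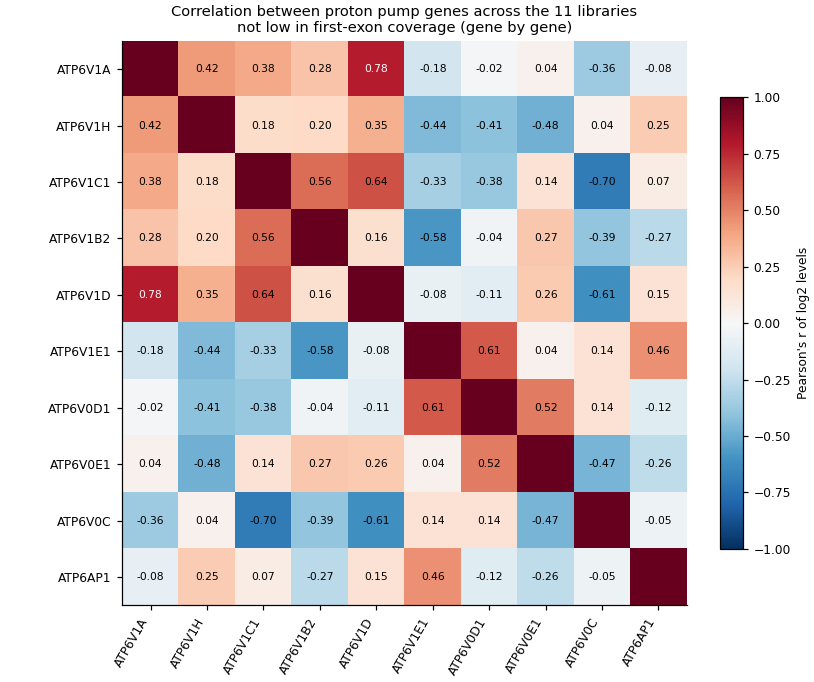
Pearson's r of log2 levels between the 10 genes across the 11 libraries not low in first-exon coverage, with red for positive and blue for negative values. ATP6V1A, ATP6V1H, ATP6V1C1, ATP6V1B2 and ATP6V1D are positive with each other, up to 0.783, and ATP6V0C is lowest with ATP6V1C1, at -0.697.

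For gain, the 2 high-gain groups were set against the 2 low-gain groups, 8 animals against 8. None of the 10 pump genes passed (limma on log2(value + 0.1), Benjamini-Hochberg adjusted over 9443 genes, threshold 0.05), and 0% of all tested genes did. The smallest adjusted p over all genes was 0.715. Before adjustment 0 of the 10 had p under 0.05, where 5.28% of all tested genes did. Estimates were above 0 for 3 genes and below 0 for 7, with a median log2 difference of -0.11, against -0.05 over all genes.

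Among V1 genes, ATP6V1H averaged 29.8 ± 11.4 in high-gain and 24.0 ± 8.80 in low-gain animals (SD, n = 8 each; log2 0.29, SE 0.26), a difference within the spread between animals. ATP6V1A had means of 87.2 ± 31.1 in high-gain and 75.2 ± 22.5 in low-gain animals (log2 0.18, SE 0.23). The catalytic partner ATP6V1B2 averaged 10 ± 2.54 in high-gain and 9.61 ± 1.75 in low-gain animals (log2 0.04, SE 0.17), the smallest V1 difference. ATP6V1D, ATP6V1C1 and ATP6V1E1 were at log2 -0.11, -0.10 and -0.31.

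Among V0 genes, ATP6V0D1 averaged 10.8 ± 6.85 in high-gain and 16.6 ± 6.53 in low-gain animals (log2 -0.62, SE 0.67). ATP6V0E1 had the largest estimate, with 30.5, 32.4, 33.4 and 2.93 in high gain with high intake and 34.8, 2.14, 15.4 and 20 in high gain with low intake. Animals of low gain had 45.7, 45.1, 41.7 and 34.7 with high intake, and 49.6, 63.6, 0.950 and 60.8 with low intake. Every high-gain library but the highest lay below 7 of the 8 low-gain libraries, and the remaining low-gain library, replicate 3 of low gain with low intake, was lowest of all (log2 -0.99, SE 0.88, adjusted p = 0.847, limma). That estimate rests on exon 1. With the best region outside exon 1, ATP6V0E1 averaged 23.3 ± 2.34 in high-gain and 26.7 ± 4.34 in low-gain animals (log2 -0.18, SE 0.13), and with the mean over all exon regions the sign turned (log2 0.13, SE 0.11). ATP6V0C and ATP6AP1 were at log2 -0.11 and -0.02.

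Of the 5 libraries low in first exons, 4 were of high gain and 1 of low gain. Without those 5 libraries, ATP6V0E1 had 30.5 to 34.8 in 4 high-gain and 34.7 to 63.6 in 7 low-gain libraries, with 1 overlapping pair (log2 -0.55, SE 0.14, adjusted p = 0.120, limma). This fit keeps a single library in high gain with low intake, which is assumed to vary like the other groups. In the libraries kept, the first-exon index still did not overlap by gain. It was -1.53 to -1.04 at high gain and -1.02 to -0.638 at low gain. As ATP6V0E1 is measured at exon 1, its difference by gain and that of first-exon coverage cannot be told apart here. ATP6V1H was at log2 0.57 (SE 0.17, adjusted p = 0.170, limma). Both had unadjusted p under 0.05, ATP6V0E1 among the 10.1% of all genes lower at high gain by that rule and ATP6V1H among the 2.12% higher. After adjustment 0.646% of all genes passed as lower and 0% as higher, and 0 of the 10 pump genes did. Leaving out replicate 3 of low gain with low intake alone gave 0.604% lower and 0.0106% higher, again with 0 pump genes.

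The result depended on how many libraries were left out. Without only the 3 libraries lowest in the index, an alternative chosen after seeing the data, 889 genes passed for gain, 9.15% of all genes as lower and 0.265% as higher. Of the 10 pump genes ATP6V0E1 alone passed, as lower at high gain (log2 -0.88, SE 0.17, adjusted p = 0.0167, limma). Its level is that of exon 1, the kind of coverage by which the libraries were picked. Left out was the only low-gain library of the 5 low in first exons, at 0.950. Replicates 3 and 4 of high gain with low intake, also low in first exons, were kept, at 15.4 and 20. A difference by gain and the choice of libraries thus cannot be told apart here. ATP6V0D1 was at log2 -0.59 (SE 0.18, adjusted p = 0.0628) and ATP6V1E1 at -0.34 (SE 0.13, adjusted p = 0.112).

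With the first-exon index as a covariate, 3 pump genes passed as higher at high gain: ATP6V0D1 (log2 0.83, SE 0.17, adjusted p = 0.0175, limma), ATP6V1E1 (0.63, SE 0.15, adjusted p = 0.0262) and ATP6V0E1 (0.90, SE 0.24, adjusted p = 0.0323). Of all tested genes, 7.66% passed as higher and 1.1% as lower in that fit. The log2 levels of these 3 pump genes followed the covariate itself, with Pearson r of 0.944, 0.917 and 0.944 over 16 libraries. In the other pump genes r ran from -0.847 to 0.789, and the median over all tested genes was -0.01. The level of ATP6V0E1 is moreover that of exon 1. Without the 5 libraries the same genes had estimates of -0.19, -0.13 and -0.55, opposite in sign. The index averaged -2.08 ± 0.908 in high-gain and -1.13 ± 0.913 in low-gain animals (n = 8 each), and its part in these differences was not tested.

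For intake, the 8 high-intake animals were set against the 8 low-intake animals. None of the 10 pump genes passed (limma, Benjamini-Hochberg, 0% of 9443 genes called), with 5 estimates above 0 and 5 below and a median log2 difference of 0.15, against -0.01 over all genes. Those above 0 were ATP6V0C, ATP6V0D1, ATP6V0E1, ATP6V1E1 and ATP6AP1, each with a lower median in the 5 libraries low in first exons than in the other 11, as was ATP6V1D, whose estimate was -0.03. Of those 5 libraries, 1 was of high intake and 4 of low intake.

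ATP6V0C alone had an unadjusted p under 0.05, where 2.47% of all genes did so as higher and 8.28% in either direction. Its levels were 106, 109, 57.0 and 51.9 in high gain with high intake and 81.7, 91.1, 91.1 and 97.3 in low gain with high intake. At low intake they were 75.5, 43.3, 46.2 and 43.6 with high gain and 79.8, 62.7, 17.4 and 72.6 with low gain. The mean was 85.6 ± 21.0 in high-intake and 55.1 ± 21.3 in low-intake animals (SD, n = 8 each; log2 0.72, SE 0.30, adjusted p = 0.528, limma), and the groups overlapped. The difference was log2 0.27 when the 5 libraries low in first exons were left out (SE 0.20, adjusted p = 0.644, limma).

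ATP6V0D1 averaged 15.9 ± 5.48 in high-intake and 11.5 ± 8.22 in low-intake animals (log2 0.91, SE 0.67), and without the 5 libraries the difference was -0.01 (SE 0.13). ATP6V1E1 averaged 31.5 ± 8.34 and 22.5 ± 12.1 at high and low intake (log2 0.71, SE 0.44), and 0.15 (SE 0.12) without those libraries. ATP6V0E1 was at log2 0.74 (SE 0.88) with all libraries and -0.29 (SE 0.14) without the 5. ATP6AP1 averaged 31.4 ± 5.08 in high-intake and 25.3 ± 5.71 in low-intake animals (log2 0.34, SE 0.18), and 0.18 (SE 0.16) without them.

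The 5 estimates below 0 were all from V1 genes. ATP6V1C1 averaged 6.42 ± 2.61 in high-intake and 7.74 ± 2.99 in low-intake animals (log2 -0.31, SE 0.29), ATP6V1A 73.9 ± 26.4 and 88.5 ± 27.2 (-0.27, SE 0.23), and ATP6V1B2 9.07 ± 2.03 and 10.5 ± 2.06 (-0.22, SE 0.17). ATP6V1H and ATP6V1D were at -0.10 and -0.03. The adjusted p-values of the 10 genes ran from 0.528 to 0.933 (limma).

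**Figure D5:**
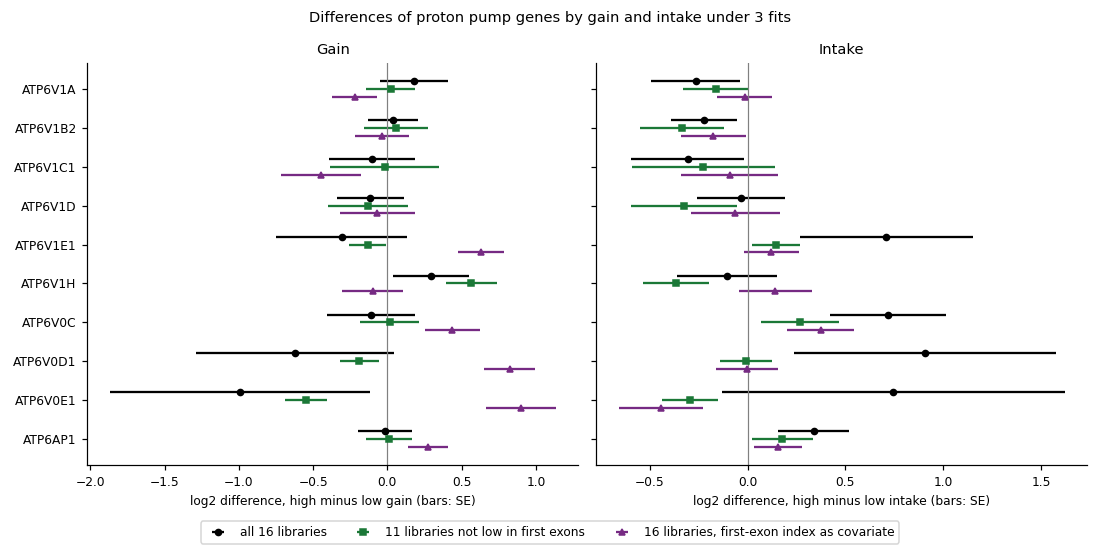
Log2 differences with SE bars for the 10 genes, high minus low gain on the left and high minus low intake on the right, from all 16 libraries (circles), from the 11 libraries not low in first exons (squares) and from 16 libraries with the first-exon index as covariate (triangles). For ATP6V0D1, ATP6V1E1 and ATP6V0E1 the gain estimates are below 0 in both fits without the covariate and above 0 with it.

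Whether the gain difference depended on intake was tested as the interaction. None of the 10 genes passed (limma, 0% of all genes called, with 0.519% of all genes at unadjusted p under 0.05 and 0 of the 10). Estimates were below 0 for 9 genes, with a median of -0.21, against -0.01 over all genes, and ATP6V0E1 had the largest SE, 1.75. Below 0 were 6 of the 10 without the 5 libraries low in first exons and 5 without the 3 lowest. ATP6V1B2 was at log2 -0.37 (SE 0.34) in all 16 libraries and ATP6V1D -0.43 (SE 0.45). Without the 5 libraries low in first exons ATP6V1H had a log2 interaction of -1.23 (SE 0.34, adjusted p = 0.304, limma), where 9.64% of all genes had unadjusted p under 0.05. In that fit high gain with low intake is represented by 1 library, in which ATP6V1H stood at 42.9.

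Of the 14 other pump subunit genes, 12 were tested, and 0 passed for gain, intake or interaction (limma, adjusted). For gain 6 estimates were above 0 and 6 below. For intake 7 were above and 5 below, and ATP6V1C2 was the single gene at unadjusted p under 0.05, where 8.28% of all genes were, so the count is at the background. ATP6V1C2 averaged 9.10 ± 3 in high-intake and 5.22 ± 2.17 in low-intake animals (SD, n = 8 each; log2 0.88, SE 0.30, adjusted p = 0.528, limma), with 6.43 to 16.0 and 1.60 to 8.22, so the groups overlapped. ATP6V1B1 averaged 28.2 ± 7.30 in high-intake and 23.5 ± 8.74 in low-intake animals (log2 0.30, SE 0.23), and 26.2 ± 8.64 in high-gain and 25.5 ± 8.21 in low-gain animals (log2 0.05, SE 0.23). ATP6V1F averaged 66.2 ± 19.6 and 45.3 ± 27.3 at high and low intake (log2 0.79, SE 0.47), and ATP6V0A1 20.5 ± 6.39 and 14.3 ± 7.81 (0.76, SE 0.47). Their medians in the libraries low in first exons were 21.6 for ATP6V1F and 8.58 for ATP6V0A1, against 73.7 and 21.8 in the other 11.

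Assembly and regulatory factors of the pump showed no passing gene among 6 tested. VMA21, an assembly chaperone of the endoplasmic reticulum, was at log2 0.29 (SE 0.23) for gain and -0.33 (SE 0.23) for intake. CCDC115, another assembly factor, was at 0.50 (SE 0.30) and -0.38 (SE 0.30), and ROGDI, a homologue of a yeast assembly factor, at -0.93 (SE 0.75) and 1.37 (SE 0.75).

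Lysosomal genes, which are known to share transcriptional control by TFEB with the pump, had 0 of 29 past the threshold in each comparison (limma). For intake 20 estimates were above 0 and 9 below, with a median log2 difference of 0.47, against -0.01 over all genes. At unadjusted p under 0.05 (limma) there were 4 above 0, among them FLCN, GAA and LAMP1, and 1 below 0, SCARB2. Over all tested genes, 2.47% were higher by that rule and 8.28% differed in either direction. LAMP1, a lysosomal membrane protein gene, averaged 72.6 ± 27.4 in high-intake and 46.6 ± 29.3 in low-intake animals (SD, n = 8 each; log2 0.80, SE 0.37, adjusted p = 0.528, limma). For gain 9 were above 0 and 20 below, with a median of -0.14. GLA, which encodes alpha-galactosidase, was the only gene of this list at unadjusted p under 0.05 (log2 0.81, SE 0.32, limma), where 5.28% of all genes were. GLA was near the floor, with a median of 0.875 (0.4 to 3.3) over a region of 93 bases, so its estimate rests on few reads. Many of this list were low in the 5 libraries low in first exons, with medians of 0.340 there and 76.6 elsewhere for CTSD, and 0.740 and 37.8 for GRN.

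Marker lists of the cell types in papillae were summed per library. The 5 macrophage markers with exon regions, of 8 listed, summed to 18.8 to 46.8 at high intake and 19.3 to 35.3 at low intake, and to 18.8 to 46.8 at high gain and 19.3 to 43.6 at low gain. Medians of this macrophage sum were 39.5 at high and 23.3 at low intake. They were 24.6 in the 5 libraries low in first exons and 35.3 in the other 11. The 11 epithelial markers, of 12 listed, summed to 2773 to 5244 and 1358 to 4170 at high and low intake. Fibroblast markers, 5 of 5, summed to 99.8 to 238 in high-intake and 142 to 899 in low-intake animals. The 899 is from a library low in first exons, and the highest sum in the other 11 was 238. Endothelial markers, 4 of 4, summed to 6.53 to 13.9 at high and 13.5 to 22.6 at low gain, and smooth muscle markers, 5 of 5, to medians of 15.9 at high and 38.4 at low gain. The smooth muscle sum had a median of 4.67 in the 5 libraries low in first exons, 4 of them of high gain, and 35.2 in the other 11. For the endothelial sum the median was 9.94 (6.99 to 14.5) in those 5 libraries and 15.4 (6.53 to 22.6) in the other 11. Its medians by intake were 13.2 at high and 14.2 at low. The 4 markers differed from each other. By gain their log2 estimates ran from -3.12 for VWF to -0.07 for KDR. By intake VWF was at 2.33 (SE 1.12), while KDR, PECAM1 and CDH5 were at -1.25, -0.56 and -0.49. After adjustment 0 of them passed (limma). No marker of these lists was at 0 in all libraries. Of the 6 genes listed for intercalated-type proton secretion 3 had exon regions, all of them pump subunits. The part of these cell types in the pump gene levels was not tested.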

How the data were processed

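The authors deposited a signal for each region: read coverage averaged over its bases and multiplied by 1 factor in each library. The values themselves show this, since their products with region length total 591.1 to 595.9 Mb in every library. TopHat2 2.08b and genome UMD3.1 are named in the submitters' processing notes. Strand use, annotation release and the treatment of multiply mapped reads were not given in the sources used. The log2, ratio (fold) and p-value columns deposited by the authors were not used.

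Columns were matched to animals by the number in each title. After 526 regions shared between genes were removed, 11996 genes remained. Of these, 9443 reached 0.5 in 4 or more libraries and were tested as log2(value + 0.1) with limma 3.58.1 in R 4.3.3 (trend and robust options, 4 group means, 16 libraries, Benjamini-Hochberg). In simulated gain data for 9443 genes, 29 of 100 genes shifted by 1 log2 unit and 74 of 100 shifted by 2 passed, as did 4 of 9243 unshifted genes. The simulated noise was independent for each gene and library. It lacked the differences between libraries that many genes share here, so these counts need not hold for the real data. The first-exon index used genes with at least 6 exons, regions with mean coverage of at least 1 and at least 3 other exon regions, and libraries below its widest gap were called low. The 10 genes, the related lists and the rules for named genes were chosen with earlier results of these data known. Those rules took all 10, other measured subunits, up to 4 genes per list and factor by unadjusted p, and the 5 nearest in pattern. ATP6V1B1 is also named for its level. CTSD and GRN fall outside the rules and are named for their low values in the libraries low in first exons. Replicates are numbered in accession order and were not treated as pairs. The p-values set a group difference against the variation between libraries within groups. That variation also holds the difference between libraries low in first exons and the others. A lysosomal gene that the rule names is not reported here.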

Additional observations from a re-analysis of the deposited data

Results flagged for a closer look

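Of 40 sets of 4 libraries (10 genes in 4 groups), 5 held a library whose gap to its nearest neighbour exceeded the 95% critical share (Dixon) of the range of its set, where chance gives about 1 in 20. Of these 5, 4 were low values in libraries low in first-exon coverage. ATP6V1E1 was at 11.64 in replicate 4 of high gain with high intake, against 33.2 to 35.4 in the other 3. It was at 3.86 in replicate 3 of low gain with low intake, against 33.8 to 34.7. ATP6V0D1 was at 0.77 in that same library, against 18.3 to 20.8 in the other 3. ATP6V0E1 was at 2.93 in replicate 4 of high gain with high intake, against 30.5 to 33.4. The remaining value was high. ATP6V0C was at 75.53 in replicate 1 of high gain with low intake, against 43.3 to 46.2, and this is the single library of that group that was not low in first exons.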

How the results depend on the processing

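For the 10 genes and 3 comparisons, pump genes passed the threshold under 2 alternatives. With the first-exon index as a covariate 3 genes were higher at high gain, those of the 10 most correlated with the index. Without the 3 libraries lowest in the index ATP6V0E1, measured at exon 1, was lower at high gain. Over all genes (limma), the gain count was 0 with 16 libraries, 61 without the 5 libraries low in first exons, 827 with the index as covariate and 889 without the 3 lowest libraries, and the intake count was 2 with the mean over all exon regions and 17 without the 3 libraries, where interaction had 10. The alternative without 3 libraries, and the interaction under another pseudocount, filter, first-exon rule or limma option, were chosen after seeing the data. Leaving out 1 library at a time gave 0 to 58 genes for gain, 58 without replicate 3 of low gain with low intake, and 0 to 1 for intake, 1 without replicate 4 of high gain with high intake. limma without the trend and robust options called 0 genes in each comparison, with 515 genes for gain, 774 for intake and 52 for interaction at unadjusted p under 0.05. Reversed log2 differences were as follows, and their cause was not tested. With the mean over all exon regions, gain was 0.19 for ATP6V1C1, 0.027 for ATP6V1D, -0.075 for ATP6V1H and 0.125 for ATP6V0E1, and intake 0.066 for ATP6V1H and -0.228 for ATP6V0E1. Without first exons, intake was -0.067 and interaction 0.181 for ATP6V0E1. Without the 3 libraries, gain was -0.066 for ATP6V1B2, and interaction -0.373 for ATP6V1C1, 0.726 for ATP6V1E1, 0.365 for ATP6V0C, 0.997 for ATP6V0D1, 1.011 for ATP6V0E1 and 0.09 for ATP6AP1. Without the 5 libraries, gain was 0.014 for ATP6V0C and 0.013 for ATP6AP1, intake -0.009 for ATP6V0D1 and -0.294 for ATP6V0E1, and interaction -0.436 for ATP6V1C1, 0.303 for ATP6V1E1, 0.192 for ATP6V0D1, 0.355 for ATP6V0E1 and 0.008 for ATP6AP1. With the covariate, gain was -0.221 for ATP6V1A, -0.037 for ATP6V1B2, 0.628 for ATP6V1E1, -0.098 for ATP6V1H, 0.436 for ATP6V0C, 0.825 for ATP6V0D1, 0.897 for ATP6V0E1 and 0.273 for ATP6AP1, and intake 0.142 for ATP6V1H, -0.003 for ATP6V0D1 and -0.443 for ATP6V0E1. Over single left-out libraries, gain ran from -0.043 to 0.103 for ATP6V1B2, -0.262 to 0.091 for ATP6V1C1, -0.21 to 0.009 for ATP6V1D and -0.144 to 0.052 for ATP6AP1, and intake from -0.129 to 0.091 for ATP6V1D and -0.25 to 0.049 for ATP6V1H. Interaction ran from -0.288 to 0.418 for ATP6V1C1, -0.443 to 0.652 for ATP6V1E1, -0.403 to 0.101 for ATP6V1H, -0.475 to 0.255 for ATP6V0C, -0.774 to 0.895 for ATP6V0D1, -1.287 to 0.985 for ATP6V0E1 and -0.315 to 0.075 for ATP6AP1. No paired analysis was possible because replicate numbers here only follow accession order. The smallest values rest on few reads, as for exon 1 of ATP6V0E1, and intervals for single libraries are not given.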
